A study of Mus musculus with 21 samples.

Results

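The genes described here are 10 members of the small RNA silencing machinery: Drosha, Dgcr8, Dicer1, Tarbp2, Ago1, Ago2, Ago3, Piwil1, Piwil2 and Mael. They were chosen by name, with earlier results of these data known. A transcript was given to a gene when its exons overlapped the exons of that gene on the same strand in GENCODE vM21 (mm10). Of the 10 genes, 8 had at least 1 merged long-read transcript, and these 8 held 21 of the 22612 merged transcripts. No transcript of any stage overlapped an exon of Ago1 or Dgcr8, so neither gene has a value. In the whole annotation, 11455 of 55450 genes had a merged transcript.

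The study profiled mouse gametes and preimplantation embryos by long-read and short-read sequencing of the same amplified cDNA. Sperm came from the epididymis of DBA/2J males (the protocol in the labels writes DBA/2N). MII oocytes came from C57/BL6J females aged 3 to 5 weeks that were superovulated with 7.5 IU PMSG and, 48 h later, hCG. Embryos had a DBA/2J father and a C57/BL6J mother and were cultured in KSOM to the 1-cell, 2-cell, 4-cell, 8-cell or blastocyst stage. Oocytes were taken 20 h after hCG, 1-cell embryos at 24 to 26 h, 2-cell embryos at 46 to 48 h, 4-cell embryos at 54 to 58 h, 8-cell embryos at 68 to 70 h and blastocysts at 94 to 96 h. No stage carried a genetic change or a drug treatment beyond the superovulation, which the oocytes and all embryos share. Each of the 7 stages had 2 short-read libraries, each from a separate batch of pooled cells, and 1 long-read pool of both batches.

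In the canonical microRNA pathway, Drosha and its partner Dgcr8 cut primary microRNA transcripts in the nucleus, Dicer1 with its partner Tarbp2 cuts the resulting hairpins in the cytoplasm, and an Argonaute protein (Ago1, Ago2, Ago3) carries the mature strand to target mRNAs. Ago2 is the mammalian Argonaute with strong slicer activity. Piwil1 and Piwil2 are Piwi-clade Argonautes that carry piRNAs, mainly in the male germ line, and Mael works with them in silencing transposons. In mouse oocytes the microRNA pathway has little activity and endogenous siRNAs made by Dicer have a large role. An oocyte form of Dicer that lacks part of the N-terminal helicase domain is known to start from a retrotransposon promoter within intron 6 of Dicer1.

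Dicer1 (ENSMUSG00000041415.10) lies on the minus strand at chr12:104687742-104751952, and its longest coding transcript has 27 exons. All 9 long-read transcripts of Dicer1 in the oocyte and 1-cell pools started inside intron 6. Of these, 7 started at a distal site and 2 at a proximal site nearer to exon 7. In the oocyte pool 4 of the 5 had 3 exons, and in the 1-cell pool 3 of the 4. The others had 2 exons and ended in exon 7. Over all genes, long-read transcripts had a median length of 826 bases in the oocyte and 724 in the 1-cell pool. From 2-cell to blastocyst the medians were 1337, 1371, 1268 and 1108 bases. The part of this difference in the models found at each stage was not tested. The merged annotation holds 3 models of 3 exons each that start in intron 6. Model 1 (chr12:104722073-104727406) and model 2 (chr12:104722073-104727399) start at the distal site, and model 3 (chr12:104722073-104726395) starts at the proximal site. The nearest annotated start was 2758 bases from the start of model 1. The sequences around both starts are shown because they are what sets these models apart from the annotated gene. Each window runs from 250 bases before the start to 49 bases after it, 5′ to 3′ on the minus strand of GRCm38, read from the annotated transcript that spans this part of the intron, and the capitals mark the first 50 bases of the long-read model.
Dicer1 distal start, chr12:104727357-104727656: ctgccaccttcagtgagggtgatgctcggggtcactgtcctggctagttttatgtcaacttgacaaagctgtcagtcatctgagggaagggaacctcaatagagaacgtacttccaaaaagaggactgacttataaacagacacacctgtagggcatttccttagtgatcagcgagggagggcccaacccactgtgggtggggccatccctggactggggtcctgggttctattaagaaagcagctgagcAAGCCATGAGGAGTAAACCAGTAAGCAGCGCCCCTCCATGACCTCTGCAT
Dicer1 proximal start, chr12:104726346-104726645: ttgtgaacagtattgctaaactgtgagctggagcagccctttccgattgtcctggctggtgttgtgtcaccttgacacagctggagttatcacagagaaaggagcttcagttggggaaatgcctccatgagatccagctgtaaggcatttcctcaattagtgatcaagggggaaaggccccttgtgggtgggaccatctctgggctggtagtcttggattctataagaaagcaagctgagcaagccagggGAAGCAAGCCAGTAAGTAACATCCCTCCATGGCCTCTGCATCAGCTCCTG

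The windows of the distal and the proximal start resembled each other. In a local alignment (match 1, mismatch -1, gap -2), 189 of 268 aligned columns were identical (70.5%), with a longest identical run of 14 bases. The same alignment of the distal window with the RefSeq promoter of Dicer1 (GRCm38.p6) covered 12 columns. GC content was 52.3% in the distal and 51.0% in the proximal window, 77.3% in the RefSeq promoter of Dicer1, and 52.7% in the median of 32851 RefSeq promoters of the same length. The letters TATAAA, searched on both strands, occurred once in the distal window, 119 bases before the start, and were not in the proximal window or in the RefSeq promoter of Dicer1. They occur in 13.6% of all RefSeq promoters. CCAAT, found in 37.4% of promoters, and GGGCGG, found in 35.7%, were in neither intronic window. The RefSeq promoter of Dicer1 held CCAAT once and GGGCGG at 2 positions. Repeats were not annotated here, so the windows are described by their letters only.

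The splice junctions also separate the 3 models. Each junction is printed as the last 15 bases of the upstream exon in capitals and the first 15 bases of the downstream exon in lower case. They are shown because the exon 7 side is shared with the annotated transcript and the other side is not.
Dicer1 model 1 (104727303 to 104724070): CCGTGATACAGAAGTatacacttctcagcc
Dicer1 model 2 (104727303 to 104724125): CCGTGATACAGAAGTaagcagctttgcatg
Dicer1 model 3 (104726291 to 104724070): CAGCAATGTGGAAGTatacacttctcagcc
Dicer1 annotated exon 6 to exon 7 (104728333 to 104724070): GGTGGTCCTGGACAGatacacttctcagcc
Models 1 and 3 join the annotated first base of exon 7. Model 2 joins a base further upstream, within intron 6. All of these introns begin with GT and end with AG. The 3 models end at the same base in exon 8, 11 bases from an annotated end, and 13 of the next 20 genomic bases are A. They are therefore pieces of 644 to 692 bases and do not show which exons follow exon 8. The 2-cell and 4-cell pools held 1 long-read transcript of Dicer1 each, merged into a 3′ model of 6 exons, from exon 22 to exon 27 (chr12:104691439-104700460).

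Gene values are summed TPM (a share of the transcripts of a library, scaled to the same total in each, which is corrected for length and keeps no read depth) over the merged transcripts of a gene. Because several members are represented by pieces that do not overlap, 1 mRNA can count more than once in such a sum, and pieces are also given apart. Tests were made with limma on log2(TPM + 1) across the whole table, and a Benjamini-Hochberg adjusted p under 0.05 is written as called. Because of the added 1, differences between low values come out too small. In these bulk libraries, fewer cells of a type and less RNA per cell cannot be told apart, and a change is relative to the other transcripts of the library. The stage labels were set against marker genes. Oocyte markers summed to 5117 and 16201 TPM in oocytes and to 2676 and 2524 TPM in 1-cell embryos. At the 2-cell stage they summed to 115 TPM in replicate 1 and 1323 in replicate 2. Gdf9 alone held 4176 and 15568 TPM in oocytes. Bmp15 and Nlrp5 were higher in both 1-cell libraries than in either oocyte library, Gdf9 was lower and the other genes of the list overlapped. Spermatid and sperm markers summed to 17339 and 21188 TPM in sperm against at most 17.1 elsewhere. Blastocyst markers summed to 9630 and 35651 TPM in blastocysts, mostly Krt8 (3504 and 15040) and Krt18 (5733 and 20177). The 2-cell libraries differed most from each other, with a median SD of 1.04 per gene on the log2 scale against 0.187 at the 4-cell stage. Markers of the 2-cell stage summed to 20.2 TPM in 2-cell replicate 1, below both 4-cell libraries (32.9 and 36.8), and to 332 in replicate 2. Of 8 markers of cumulus and granulosa cells, 6 had no merged transcript. The other 2, Amhr2 and Ptgs2, summed to at most 0.242 TPM in oocytes and 1-cell embryos and to between 5.81 and 107 TPM in later embryos. The later values were almost all Amhr2, with 44.9 and 49.9 TPM in 2-cell and 99.2 and 107 in 4-cell embryos. Ptgs2 had at most 0.481 TPM in any oocyte or embryo library. The part of such cells in the results was not tested.

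**Figure D1:**
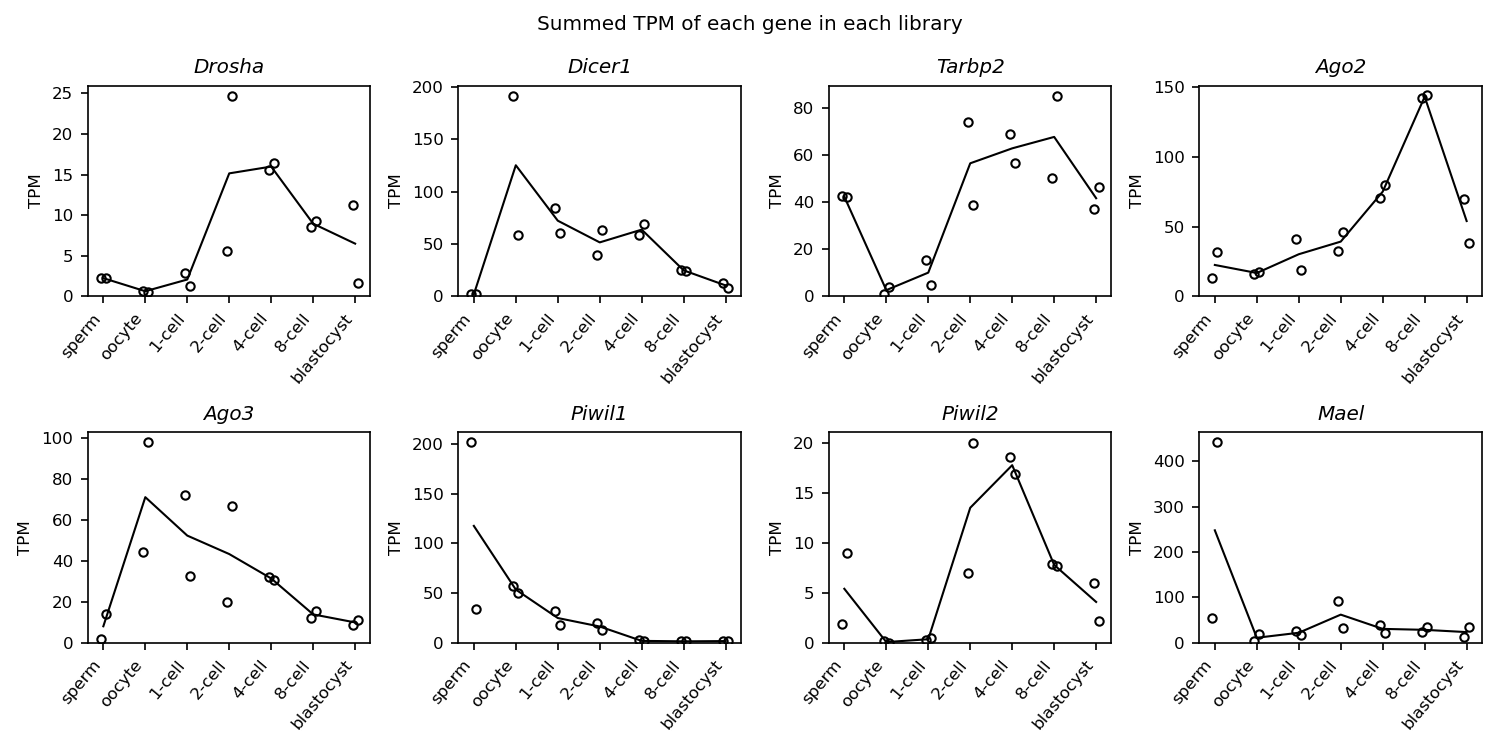
Summed TPM (vertical axis, linear, a separate scale per gene) of the 8 genes with a merged transcript in each of 14 libraries, by stage. Circles are libraries and lines join the means of 2 libraries: Dicer1, Ago3 and Piwil1 are high in oocytes, Tarbp2, Drosha and Piwil2 are low there, and Ago2 has its highest values at the 8-cell stage.

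From oocyte to blastocyst, 5 of the 8 genes tested were called, against 53.4% of all 10484 genes tested (35.7% higher and 17.7% lower). Dicer1, Ago3 and Piwil1 fell, and Tarbp2 and Piwil2 rose. The share of members called, 5 of 8, lies near this background. The median change was 0.83 on the log2 scale over all genes and 1.41 over the 8 members. After quantile normalization the median of all genes was 0.08, and the same 5 members were called in the same directions. Between neighbouring stages there were fewer calls. Tarbp2 and Piwil2 rose from 1-cell to 2-cell (2 of 8 members, against 32.2% of all genes and 26.1% called higher), and Piwil1 fell from 2-cell to 4-cell (1 of 8, against 3.1% of all genes and 1.63% called lower). No member was called from oocyte to 1-cell (0.267% of all genes), from 4-cell to 8-cell (1.62%) or from 8-cell to blastocyst (2.98%). At an unadjusted p under 0.05 these comparisons gave 0, 0 and 1 member. The split of calls between 1-cell and 2-cell moved with scaling: the median change of all genes was 0.73, with 2736 genes higher and 635 lower, and after quantile normalization it was -0.11, with 1659 higher and 1839 lower.

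**Figure D2:**
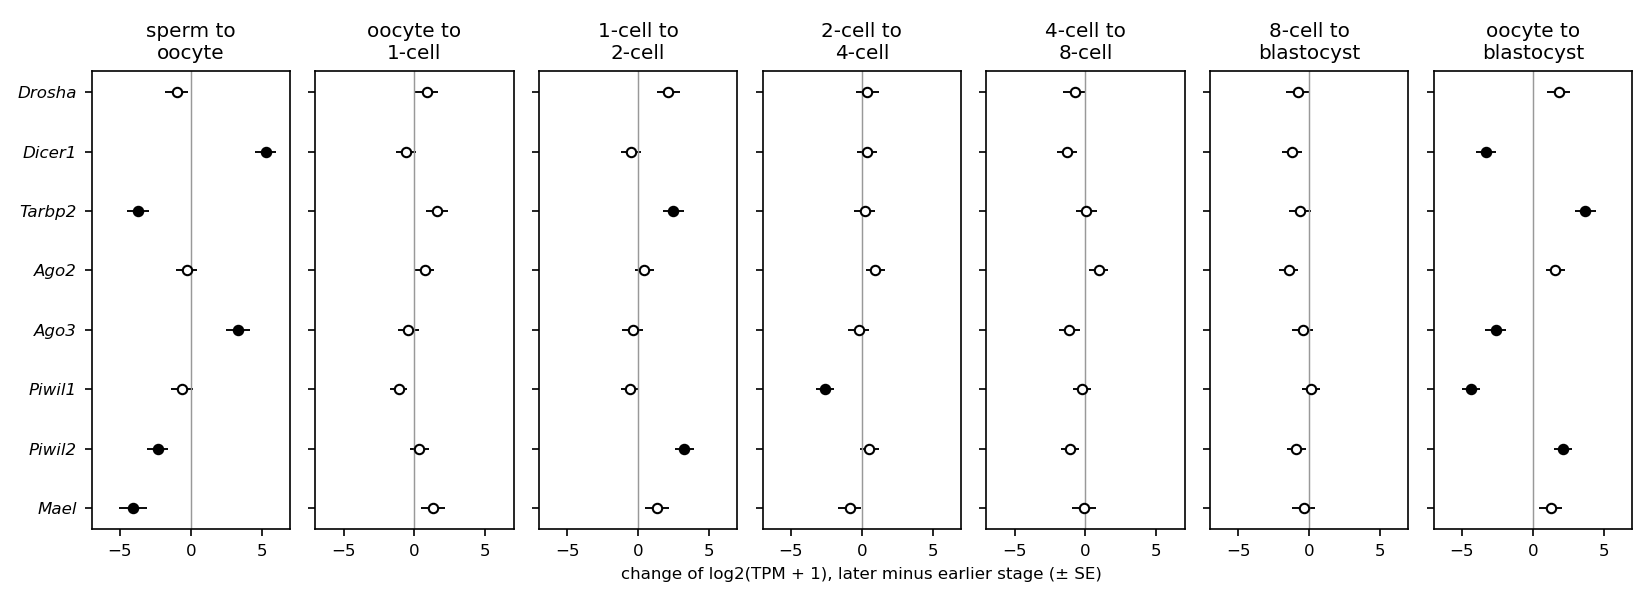
Change of log2(TPM + 1) of the 8 genes (horizontal axis, later minus earlier stage, bars ± SE) in 7 comparisons. Filled circles are called at an adjusted p under 0.05 and open circles are not; from oocyte to blastocyst 5 circles are filled, with Piwil1 at -4.37 and Tarbp2 at 3.71.

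Drosha (chr15:12824815-12935291, plus strand) is the nuclear RNase III that starts microRNA maturation. It had 1 merged transcript of 28 exons, found in the 2-cell pool and starting in exon 8 of 35. Its TPM was 2.22 and 2.24 in sperm, 0.675 and 0.554 in oocytes, 2.86 and 1.26 in 1-cell, 5.58 and 24.7 in 2-cell, 15.6 and 16.4 in 4-cell, 8.55 and 9.33 in 8-cell embryos and 11.3 and 1.68 in blastocysts. Both oocyte libraries were the lowest of all 14, and from 1-cell to 2-cell the libraries did not overlap. The change of 2.14 (SE 0.81) from 1-cell to 2-cell did not pass (adjusted p = 0.058, limma), nor did the change of 1.83 (SE 0.81) from oocyte to blastocyst (adjusted p = 0.072).

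Dicer1, the RNase III of the next step, had its highest summed values in oocytes. Its TPM was 1.68 and 1.87 in sperm, 191 and 58.9 in oocytes, 84.3 and 60.1 in 1-cell, 39.8 and 63.1 in 2-cell, 58.7 and 68.6 in 4-cell, 25.0 and 24.4 in 8-cell embryos and 12.3 and 8.29 in blastocysts. The order of stage means ran from oocyte over 1-cell, 4-cell and 2-cell, whose libraries overlapped from one stage to the next, to 8-cell, blastocyst and sperm, which did not overlap. Dicer1 fell by 3.27 (SE 0.71) on the log2 scale from oocyte to blastocyst (adjusted p = 0.0015, limma).

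The fall was that of the models that start in intron 6. Their summed TPM was 0.788 and 1.75 in sperm, 189.7 and 55.1 in oocytes, 77.2 and 56.6 in 1-cell, 29.8 and 40.6 in 2-cell, 29.9 and 31.5 in 4-cell, 16.2 and 16.2 in 8-cell embryos and 5.59 and 7.23 in blastocysts. From oocyte to blastocyst the libraries of neighbouring stages overlapped only between oocyte and 1-cell and between 2-cell and 4-cell. The 3′ model had 0.891 and 0.117 TPM in sperm, 1.77 and 3.78 in oocytes, 7.08 and 3.55 in 1-cell, 10.0 and 22.5 in 2-cell, 28.8 and 37.2 in 4-cell, 8.73 and 8.25 in 8-cell embryos and 6.72 and 1.05 in blastocysts. Its highest values were thus at the 4-cell stage, and its oocyte and blastocyst libraries overlapped. With the gene value taken from the 3′ model alone, a choice made after seeing the data, the change from oocyte to blastocyst was 0.13 in place of -3.27 (adjusted p = 0.90, limma; 20 of 21 other settings kept the call of the summed value). In the oocyte libraries the deposited models thus hold most Dicer1 TPM at the exons around intron 6 and little at the 3′ end.

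As a share of the TPM of the gene, the intron 6 models made up 99.1 and 93.6% in oocytes, 91.6 and 94.1% in 1-cell, 74.9 and 64.3% in 2-cell, 51.0 and 45.8% in 4-cell, 65.0 and 66.3% in 8-cell embryos, 45.4 and 87.3% in blastocysts and 46.9 and 93.7% in sperm. All 4 oocyte and 1-cell libraries lay above every library from 2-cell to blastocyst. This share sets pieces of different exons side by side and is not a choice between first exons of full-length mRNAs. Relative to the rest of the gene, the 3′ model rose by 3.94 (SE 0.94) on the log2 scale from oocyte to blastocyst (adjusted p = 0.0128, limma; 25.3% of all 5477 first-exon clusters were called). Without blastocyst replicate 1 the adjusted p was 0.088 with a change of 2.83, and without oocyte replicate 1 it was 0.087 with a change of 2.66. 

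The 3 intron 6 models differed among themselves. Model 1 had 147 and 37.9 TPM in oocytes, 55.1 and 35.4 in 1-cell, 0 and 15.8 in 2-cell, 2.94 and 6.39 in 4-cell embryos, and it was listed at 0 in both 8-cell and both blastocyst libraries. At the 2-cell stage, the library with 0 was replicate 1, where oocyte markers were also lower (115 against 1323 TPM), and the part of that difference in the value was not tested. Model 3, from the proximal start, had 14.7 and 3.55 TPM in oocytes and 6.90 and 6.25 in 1-cell embryos, at most 3.81 in later libraries, and 0 in both 8-cell and both blastocyst libraries. Both were called lower from oocyte to blastocyst (adjusted p = 0.00088 for model 1 and 0.0026 for model 3, limma over 20250 transcripts). Model 2, whose second exon begins within intron 6, had 28.04 and 13.7 TPM in oocytes, 15.2 and 14.9 in 1-cell, 28.9 and 22.2 in 2-cell, 24.6 and 21.3 in 4-cell, 16.2 and 16.2 in 8-cell embryos and 5.59 and 7.23 in blastocysts. It was the intron 6 model left in 8-cell embryos and blastocysts, and its change of -1.49 (SE 0.65) from oocyte to blastocyst did not pass (adjusted p = 0.081). The 3 models share exons, so the division of reads among them is an estimate. Model 1 was also called lower from 1-cell to 2-cell (change -3.46, SE 1.10, adjusted p = 0.034, limma). In 9 of 19 other settings this call was kept. Without 2-cell replicate 1 the change was -1.43 (adjusted p = 0.21), without 1-cell replicate 1 it was -3.15 (adjusted p = 0.16), without 1-cell replicate 2 it was -3.78 (adjusted p = 0.10), and without any 1 library of the 8-cell or blastocyst stage the adjusted p lay between 0.0526 and 0.0547.

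**Figure D3:**
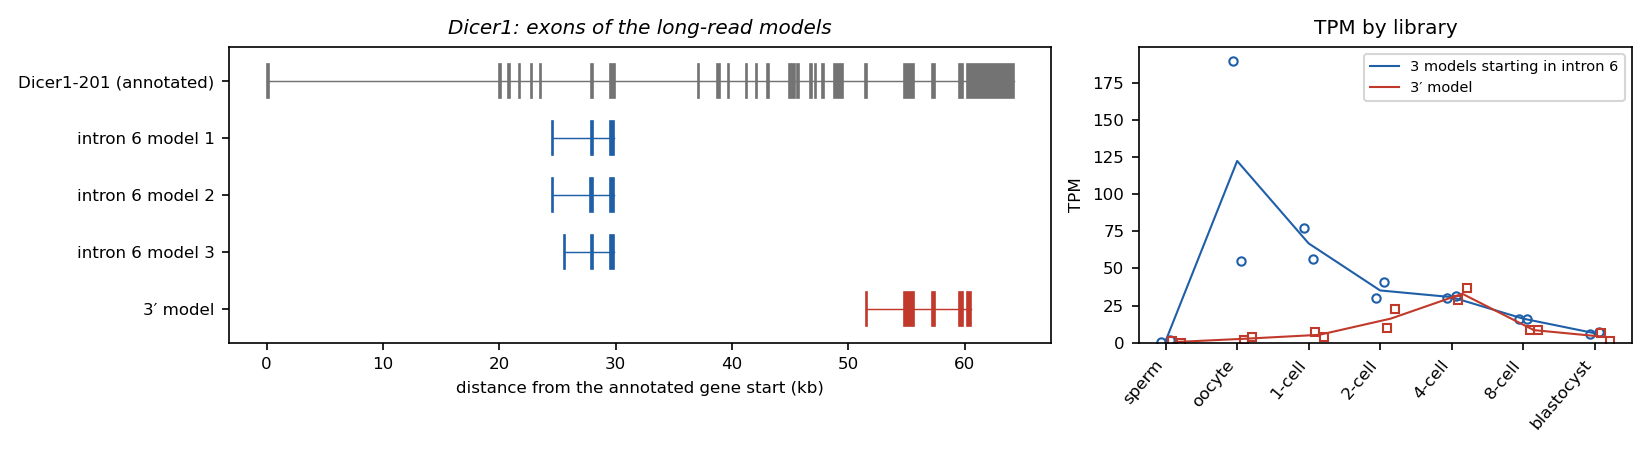
Left, exons (boxes) of the longest annotated coding transcript of Dicer1 and of the 4 merged long-read models against the distance from the annotated gene start in kb; right, TPM (linear axis) in each of 14 libraries, circles for the 3 intron 6 models together and squares for the 3′ model, lines joining means of 2 libraries. The intron 6 models reach 189.7 TPM in 1 oocyte library, where the 3′ model has 1.77.

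Tarbp2 (chr15:102518192-102523676, plus strand), the double-stranded RNA binding partner of Dicer, had its lowest values in oocytes. Its TPM was 42.5 and 42.2 in sperm, 1.06 and 4.10 in oocytes, 15.3 and 4.82 in 1-cell, 74.3 and 38.9 in 2-cell, 69.1 and 56.8 in 4-cell, 50.3 and 85.3 in 8-cell embryos and 37.1 and 46.4 in blastocysts. All 8 libraries from 2-cell to blastocyst were above all 4 oocyte and 1-cell libraries. It rose by 3.71 (SE 0.75) on the log2 scale from oocyte to blastocyst (adjusted p = 0.00092, limma), a call kept in all 21 other settings. It also rose from 1-cell to 2-cell, by 2.49 (SE 0.75, adjusted p = 0.020, limma), but after quantile normalization the change was 1.59 (adjusted p = 0.098). Without 1-cell replicate 2 it was 1.75 (adjusted p = 0.17) and without 2-cell replicate 1 it was 2.04 (adjusted p = 0.073).

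The rise of Tarbp2 was divided among 3 merged transcripts that share their end (position 102523674). The 9-exon model, whose introns all match the annotation, had 0.155 and 3.76 TPM in oocytes, 13.3 and 3.30 in 1-cell, 43.3 and 6.91 in 2-cell, 27.1 and 24.8 in 4-cell, 27.1 and 47.6 in 8-cell embryos and 29.4 and 43.2 in blastocysts. It was called higher from oocyte to blastocyst (change 3.97, SE 0.97, adjusted p = 0.0061), though without oocyte replicate 1 the change was 2.95 (adjusted p = 0.063). The 7-exon model rose by 3.48 (SE 0.63) from 1-cell to 2-cell (adjusted p = 0.0021), from 1.93 and 0.645 to 22.5 and 24.5 TPM, and it had 2.06 and 1.50 TPM in blastocysts. The 8-exon model followed it, with 0 and 0.874 TPM in 1-cell, 8.45 and 7.52 in 2-cell, 18.5 and 15.2 in 4-cell embryos and 5.64 and 1.67 in blastocysts (change from 1-cell to 2-cell 2.71, SE 0.69, adjusted p = 0.013). After quantile normalization that change was 1.54 (adjusted p = 0.16, limma). Without 1-cell replicate 1 that change was 2.26 (adjusted p = 0.11). In the 1-cell to 2-cell comparison of transcripts, 7 of the 21 member transcripts were called, 6 higher and 1 lower, against 28.0% of all 20250 (22.9% higher and 5.11% lower). None was called from oocyte to 1-cell (2.0% of all transcripts), 2-cell to 4-cell (2.63%), 4-cell to 8-cell (3.13%) or 8-cell to blastocyst (2.11%), where limma gave 1, 4, 4 and 4 member transcripts at an unadjusted p under 0.05. The 9-exon share of the gene was 14.6 and 91.6% in oocytes, 87.3 and 68.5% in 1-cell and 58.3 and 17.8% in 2-cell embryos. It was 39.2 and 43.7% in 4-cell and 53.8 and 55.8% in 8-cell embryos and 79.2 and 93.2% in blastocysts. In sperm it was 88.1 and 93.2%. A difference in this share between stages was not tested. 

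Of the Argonautes, Ago2 (chr15:73095844-73184935, minus strand) is the slicer. Its summed TPM was 13.2 and 31.8 in sperm, 15.7 and 17.7 in oocytes, 41.2 and 19.1 in 1-cell, 32.4 and 46.1 in 2-cell, 70.7 and 79.6 in 4-cell, 142 and 144 in 8-cell embryos and 70.1 and 37.9 in blastocysts. The 8-cell libraries were the highest and the 4-cell libraries the next, with no overlap, while the other stages overlapped with a neighbour in that order. The summed value was called in no comparison of the 12 libraries. From oocyte to blastocyst the change was 1.58 (SE 0.67, adjusted p = 0.060, limma), and 7 of 21 other settings called it.

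The sum of Ago2 joined different courses of its 5′ and 3′ parts. All 3 long-read transcripts of Ago2 in the oocyte and 1-cell pools started in intron 1, at base 73177876 and 29 bases from an annotated start, and ended in intron 3. None of the 9 Ago2 transcripts in the later pools did. Transcripts of all genes were longer in those embryo pools, and the part of this in the difference was not tested. The later transcripts were pieces of the 3′ part: a model of 8 exons from exon 12 to exon 19 (chr15:73106048-73121208) and 2 single-exon models inside the last exon (chr15:73098452-73100703 and chr15:73095846-73097625).

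The 5′ models together had 6.52 and 22.2 TPM in sperm, 14.7 and 14.7 in oocytes, 37.7 and 17.8 in 1-cell, 20.5 and 20.0 in 2-cell, 7.31 and 4.75 in 4-cell, 4.00 and 6.31 in 8-cell embryos and 4.12 and 2.35 in blastocysts. The 3′ models together had 6.63 and 9.59 TPM in sperm, 1.02 and 2.93 in oocytes, 3.53 and 1.28 in 1-cell, 11.9 and 26.1 in 2-cell, 63.4 and 74.8 in 4-cell, 138 and 138 in 8-cell embryos and 66.0 and 35.5 in blastocysts. In oocytes and 1-cell embryos all 4 libraries held more of the 5′ models, and from 4-cell to blastocyst all 6 held more of the 3′ models. The share of the 5′ models was 93.5 and 83.4% in oocytes and 91.4 and 93.3% in 1-cell embryos. It was 63.4 and 43.4% in 2-cell and 10.3 and 5.97% in 4-cell embryos. Like that of Dicer1, this share sets pieces of different exons side by side.

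Relative to the rest of the gene, the 5′ models fell by 6.06 (SE 0.64) on the log2 scale from oocyte to blastocyst (adjusted p = 0.00025, limma), a call kept in all 20 other settings. In that comparison 4 of 11 member clusters were called, 3 higher and 1 lower, against 25.3% of all clusters (12.8% higher and 12.6% lower). They were the 3′ model of Dicer1 and, for Ago2, the 5′ models and both single-exon models inside the last exon. The single-exon model that reaches the annotated end kept its call in all 20 other settings. The upstream one (change 2.40, SE 0.63) kept it in 16 of 20. In the fit on the 4 libraries its adjusted p was 0.10 (limma), and without blastocyst replicate 1 its change was 2.04. Each cluster is set against the rest of its gene, so the calls of Ago2 are not independent of each other. No member cluster was called from 4-cell to 8-cell (0.201% of all) or 8-cell to blastocyst (0.11%), and none of any gene from oocyte to 1-cell (0.0%) or 2-cell to 4-cell (0.0%). These 4 comparisons gave 1, 0, 0 and 5 member clusters at an unadjusted p under 0.05 in limma. Between 1-cell and 2-cell, 2 of 11 member clusters were called, 1 higher and 1 lower, against 10.3% of all (5.04% higher and 5.26% lower). The 5′ models fell by 2.88 (SE 0.64, adjusted p = 0.020, limma) and the 8-exon model rose by 2.37 (SE 0.61, adjusted p = 0.036). After quantile normalization the changes were -2.45 (adjusted p = 0.059, limma) and 1.94 (adjusted p = 0.078). Without 1-cell replicate 1, 1-cell replicate 2 or 2-cell replicate 2 the adjusted p was 0.11, 0.093 and 0.061 for the 5′ models, with changes of -2.85, -2.91 and -2.33, and 0.15, 0.13 and 0.10 for the 8-exon model, with changes of 2.38, 2.35 and 1.89. The call of the 8-exon model was kept in 8 of 20 other settings, and it was also lost without any 1 library of the 4-cell or 8-cell stage (adjusted p between 0.0663 and 0.0718).

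By transcript, all 3 models of the 3′ part were called higher from oocyte to blastocyst. The last-exon model that reaches the annotated end rose by 4.25 (SE 0.66, adjusted p = 0.00040), from 0.223 and 0.440 to 28.3 and 20.7 TPM, with 72.1 and 70.5 TPM in 8-cell embryos. The upstream last-exon model rose by 3.60 (SE 0.64, adjusted p = 0.00095), from 0.097 and 0.077 to 20.3 and 7.10 TPM. The 8-exon model rose by 2.40 (SE 0.74, adjusted p = 0.020), from 0.696 and 2.42 to 17.4 and 7.79 TPM; without blastocyst replicate 1 this change was 1.87 (adjusted p = 0.12) and without oocyte replicate 1 it was 1.90 (adjusted p = 0.12). In this comparison 10 of 21 member transcripts were called, 4 higher and 6 lower, against 43.0% of all transcripts (26.7% higher and 16.3% lower). The changes of both 5′ models, -1.32 and -1.73, did not pass. The 8-exon model (change 2.30, SE 0.74, adjusted p = 0.036, limma) and the upstream last-exon model (change 1.91, SE 0.64, adjusted p = 0.043) were also called higher from 1-cell to 2-cell. In 8 and 6 of 19 other settings these calls were kept. After quantile normalization the changes were 1.24 (adjusted p = 0.15, limma) and 0.86 (adjusted p = 0.29). Leaving out 1 library of the 1-cell, 4-cell or 8-cell stage or 2-cell replicate 2 ended both, with adjusted p between 0.0593 and 0.213 for the first and between 0.0661 and 0.153 for the second, which was also lost without oocyte replicate 1 or 2 (adjusted p = 0.0531 and 0.0532).

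Ago3 (chr4:126331704-126429556, minus strand) lacks the slicer activity of Ago2 on most targets. Its summed TPM was 1.96 and 14.1 in sperm, 44.3 and 97.9 in oocytes, 71.9 and 32.7 in 1-cell, 19.9 and 66.7 in 2-cell, 32.0 and 30.8 in 4-cell, 12.1 and 15.6 in 8-cell embryos and 8.50 and 11.3 in blastocysts. Libraries overlapped between neighbours from oocyte to 4-cell, and the 8-cell and blastocyst libraries were below all of these. It fell by 2.63 (SE 0.75) from oocyte to blastocyst (adjusted p = 0.0090, limma), with 19 of 21 other settings keeping the call. Without blastocyst replicate 1 the change was -2.44 (adjusted p = 0.051) and without oocyte replicate 2 it was -2.07 (adjusted p = 0.076).

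The fall of Ago3 was carried by models with an early end. The models of 6 exons started 33 bases and 1 base from an annotated start and ended in intron 5, at base 126397957, 1 base from an annotated end. Together they had 34.2 and 70.7 TPM in oocytes, 39.3 and 17.5 in 1-cell, 1.56 and 22.9 in 2-cell, 9.37 and 8.76 in 4-cell, 1.74 and 1.93 in 8-cell embryos and 0.563 and 0.471 in blastocysts. The lower value at the 2-cell stage was in replicate 1, where oocyte markers were also lower (115 against 1323 TPM in replicate 2); their part in it was not tested. The model of 7 exons, which ends in intron 6 (base 126375677), had 6.12 and 18.1 TPM in oocytes, 30.4 and 14.3 in 1-cell, 17.0 and 32.6 in 2-cell, 20.9 and 18.2 in 4-cell, 9.02 and 11.4 in 8-cell embryos and 6.52 and 10.8 in blastocysts. Its oocyte and blastocyst libraries overlapped.

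In oocytes, 77.2 and 72.3% of the Ago3 TPM lay in the models that end in intron 5, in 1-cell embryos 54.6 and 53.6%, and in blastocysts 6.63 and 4.16%. The first of these models fell by 4.37 (SE 0.87) from oocyte to blastocyst (adjusted p = 0.0018, limma), from 18.5 and 37.2 to 0.181 and 0.471 TPM. The other fell by 4.35 (SE 0.93, adjusted p = 0.0029), from 15.7 and 33.6 to 0.383 and 0 TPM. Both calls were kept in all 19 other settings. The change of the model ending in intron 6 was -0.31 (SE 0.74, adjusted p = 0.76). A short single-exon model in the last exon had at most 11.2 TPM in any library and was called lower (change -2.14, SE 0.81, adjusted p = 0.049), with 5 of 19 other settings keeping the call. Leaving out any 1 library of the oocyte, 1-cell, 4-cell, 8-cell or blastocyst stage ended it (adjusted p between 0.0615 and 0.239, change between -2.74 and -1.55). The models ending in introns leave out most of the coding exons of Ago3. Their difference from the intron 6 model was not tested directly.

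**Figure D4:**
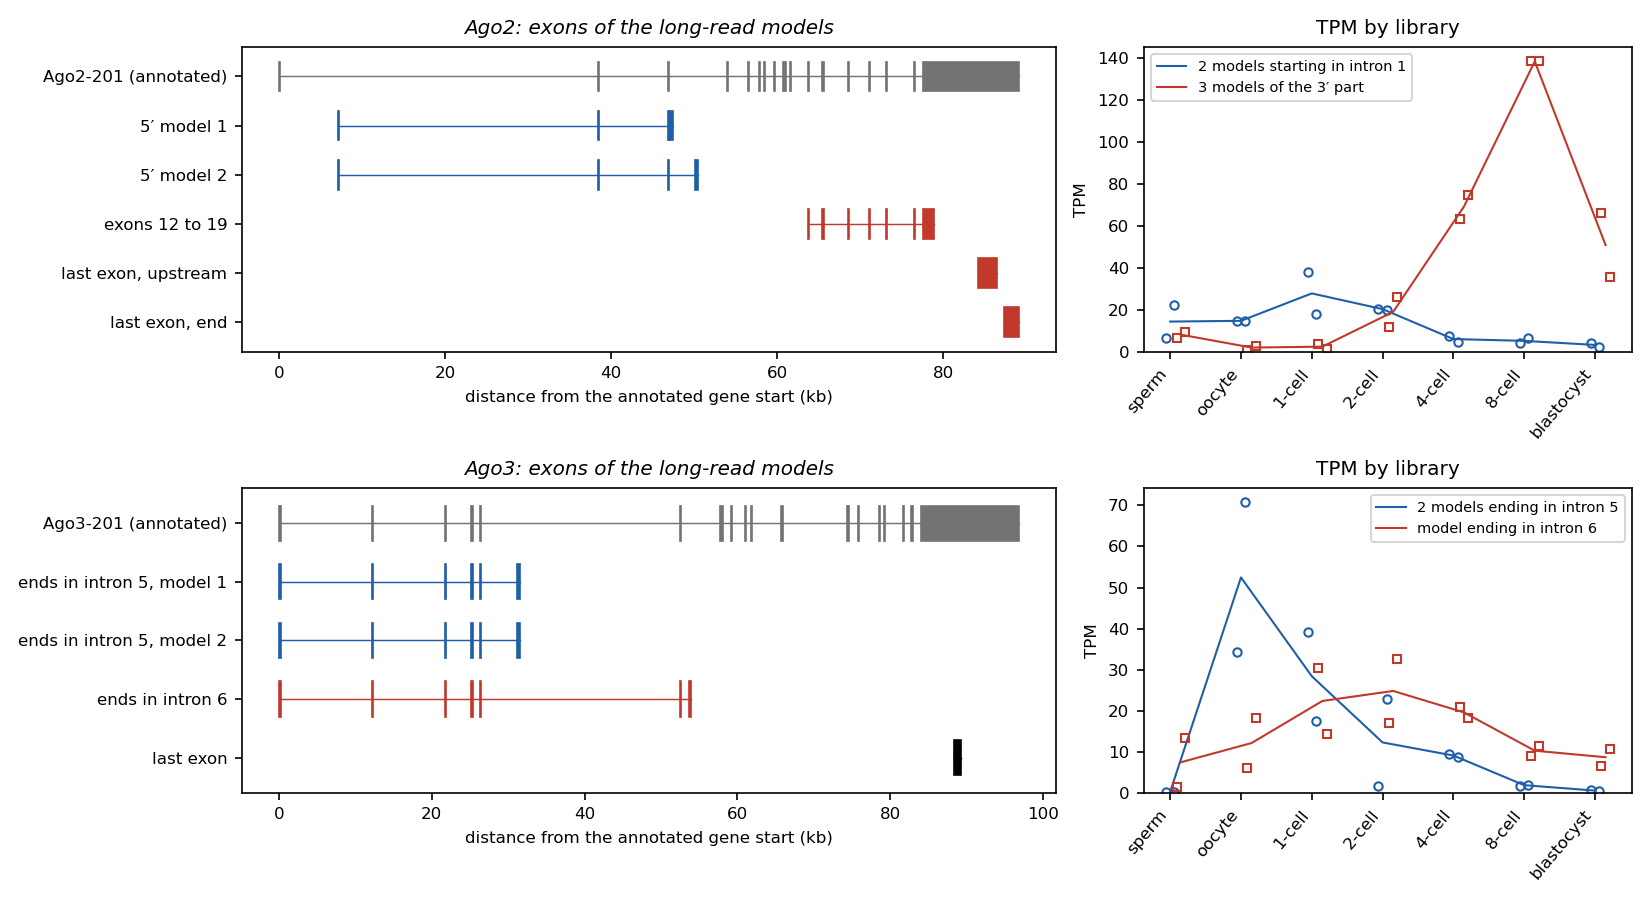
Left, exons of the longest annotated coding transcripts of Ago2 and Ago3 and of the merged long-read models against the distance from the annotated gene start in kb; right, TPM (linear axis) in each of 14 libraries, lines joining means of 2 libraries. For Ago2, 5′ models (circles) lie above 3′ models (squares) in oocytes and 1-cell embryos and far below them at the 8-cell stage (4.00 and 6.31 against 138 and 138 TPM); for Ago3, models ending in intron 5 (circles) drop to 0.563 and 0.471 TPM in blastocysts.

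**Figure D5:**
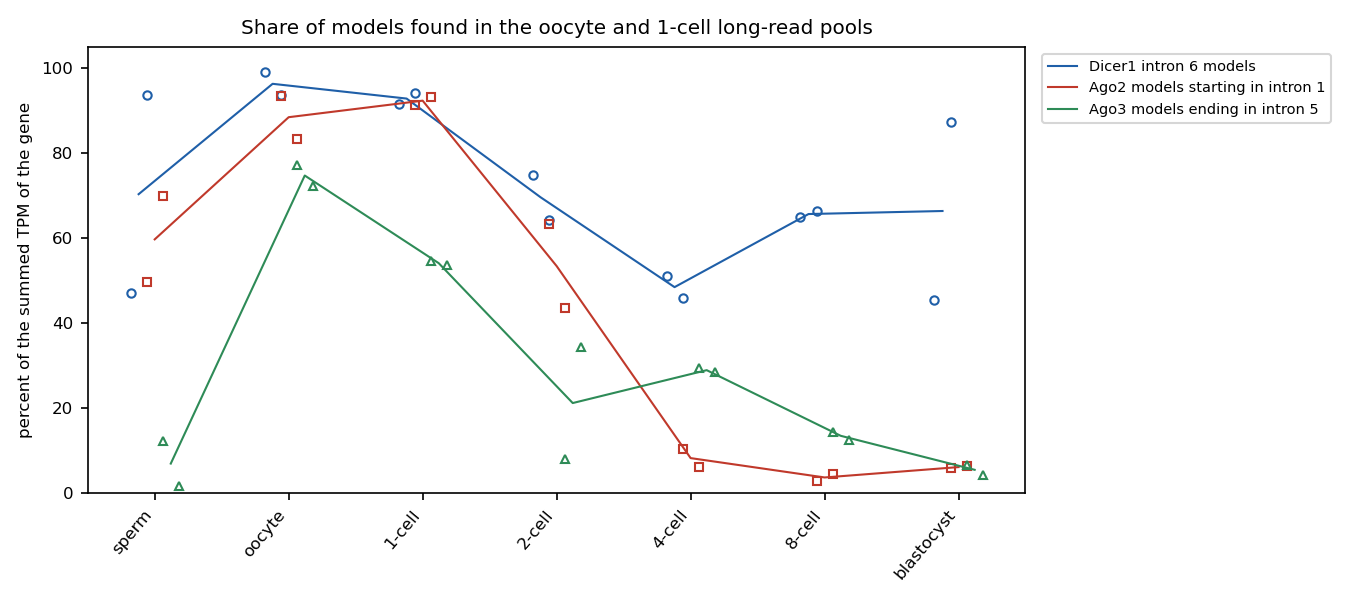
Share of the summed TPM of the gene (vertical axis, percent) in the Dicer1 models that start in intron 6 (circles), the Ago2 models that start in intron 1 (squares) and the Ago3 models that end in intron 5 (triangles), in each of 14 libraries, lines joining means of 2 libraries. All 3 shares are higher in the 4 oocyte and 1-cell libraries than in any 4-cell or 8-cell library; the Dicer1 share is 45.4 and 87.3% in blastocysts.

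Among the piRNA genes, Piwil1 (chr5:128702524-128755474, plus strand), the Piwi protein of pachytene piRNAs, was represented by a single exon of 637 bases inside its last exon (chr5:128754533-128755169). It was found in the sperm pool only. Its TPM was 202 and 33.6 in sperm, 57.3 and 49.7 in oocytes, 31.5 and 18.2 in 1-cell, 19.9 and 12.7 in 2-cell, 2.28 and 1.41 in 4-cell, 1.43 and 1.34 in 8-cell embryos and 1.57 and 1.70 in blastocysts. All 6 libraries from 4-cell on were below all 6 libraries from oocyte to 2-cell. It fell by 4.37 (SE 0.63) from oocyte to blastocyst (adjusted p = 7.7e-05, limma), a call kept in all 21 other settings. The step from 2-cell to 4-cell was -2.59 (SE 0.63, adjusted p = 0.045). The call was kept in 9 of 21 other settings. Without 4-cell replicate 1 the adjusted p was 0.29, without 4-cell replicate 2 it was 0.38, and without either library of the oocyte, 1-cell or 8-cell stage it lay between 0.058 and 0.090 with the same change.

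Piwil2 (chr14:70372477-70429383, minus strand), a Piwi protein of earlier male germ cells, had a different course. Its TPM was 1.85 and 8.95 in sperm, 0.128 and 0 in oocytes, 0.258 and 0.440 in 1-cell, 6.98 and 20.1 in 2-cell, 18.6 and 16.9 in 4-cell, 7.88 and 7.71 in 8-cell embryos and 6.02 and 2.16 in blastocysts. All 8 libraries from 2-cell on were above all 4 libraries of the oocyte and 1-cell stages. Between 1-cell and 2-cell it rose by 3.27 (SE 0.65, adjusted p = 0.0021, limma), and by 2.16 after quantile normalization (adjusted p = 0.0049). All 21 other settings kept this call, each 2-cell library left out included. From oocyte to blastocyst it rose by 2.15 (SE 0.65, adjusted p = 0.012). Without blastocyst replicate 1 that change was 1.57 (adjusted p = 0.097), without oocyte replicate 2 it was 2.06 (adjusted p = 0.063), and with the transcript nearest the annotated end alone it was 1.52 (adjusted p = 0.065).

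Both Piwil2 models came from the 4-cell pool and are pieces. The 5′ model of 6 exons (chr14:70420198-70429083) starts 11 bases from the annotated start and ends in intron 6, and the 3′ model of 4 exons (chr14:70372478-70381187) starts in intron 20. The 5′ model had 0.076 and 0.044 TPM in 1-cell, 4.52 and 11.7 in 2-cell and 3.56 and 3.24 in 4-cell embryos. The 3′ model had 0.182 and 0.396 in 1-cell, 2.46 and 8.32 in 2-cell and 15.1 and 13.7 in 4-cell embryos. Both rose from 1-cell to 2-cell (changes 2.99, SE 0.54, adjusted p = 0.0021, and 2.14, SE 0.68, adjusted p = 0.033, limma). The call was kept in 17 of 18 other settings for the 5′ model and in 8 of 19 for the 3′ model. After quantile normalization the change was 1.84 for the 5′ model (adjusted p = 0.0046, limma) and 0.81 for the 3′ model (adjusted p = 0.23). Without 1-cell replicate 1, 1-cell replicate 2 or 2-cell replicate 2 the adjusted p of the 3′ model was 0.15, 0.12 and 0.12, with changes of 2.02, 2.26 and 1.43, and without any 1 library of the 4-cell or 8-cell stage it lay between 0.0526 and 0.0545.

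Mael (chr1:166201201-166238747, minus strand) had 1 merged transcript of 12 exons whose 11 introns all match the annotation and which ends 7 bases from an annotated end. Its TPM was 54.1 and 442 in sperm, 3.40 and 18.4 in oocytes, 26.7 and 17.3 in 1-cell, 91.5 and 32.3 in 2-cell, 38.5 and 22.5 in 4-cell, 23.2 and 33.6 in 8-cell embryos and 12.8 and 34.0 in blastocysts. Neighbouring stages in the order of their means overlapped throughout, sperm included. No comparison of Mael from oocyte to blastocyst passed; the change over the whole span was 1.25 (SE 0.84, adjusted p = 0.23).

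In the comparison of sperm with oocytes, 5 of 8 members were called, against 53.9% of 11267 genes (17.1% higher and 36.9% lower in oocytes). Dicer1 was higher in oocytes by 5.28 (SE 0.73, adjusted p = 2.3e-05, limma) and Ago3 by 3.32 (SE 0.87, adjusted p = 0.0041). Tarbp2 was lower in oocytes (change -3.74, SE 0.76, adjusted p = 0.00067), as were Mael (change -4.08, SE 0.99, adjusted p = 0.0026) and Piwil2 (change -2.33, SE 0.74, adjusted p = 0.015). The libraries of these 5 genes did not overlap between sperm and oocytes. The median change of all genes was -0.96, and -0.01 after quantile normalization, where the change of Piwil2 was -1.58 and was no longer called (adjusted p = 0.080). With the 3′ model alone, Dicer1 had a change of 1.32 (adjusted p = 0.16). Without sperm replicate 1 the change of Ago3 was 2.15 (adjusted p = 0.064). Without sperm replicate 2 the change of Mael was -2.58 (adjusted p = 0.066) and that of Piwil2 -1.43 (adjusted p = 0.12), and without oocyte replicate 1 or 2 the adjusted p of Piwil2 was 0.053 and 0.072.

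The sperm libraries also held RNA marked for other cells. Summed over 6 leukocyte genes, all with a merged transcript, the level was 75454 TPM in sperm replicate 1 and 15013 in replicate 2. In the other 12 libraries it was 4.90 to 124 TPM. Cd74 alone held 71096 and 14459 TPM in sperm. Each of the 6 genes was higher in both sperm libraries than in any other library, and all but Coro1a were higher in replicate 1. For 4 of 6 epididymis genes with a transcript the summed level was 3695 and 560 TPM, against 0.289 to 4.29. Piwil1 was also higher in sperm replicate 1, and Mael and Piwil2 were higher in replicate 2. The part of these other cells in the sperm values of the members was not tested.

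Although no member was called from 4-cell to 8-cell in the fit over 12 libraries, the replicates of these stages lay closest together, with a median SD per gene of 0.187 and 0.271 on the log2 scale. In a fit on these 4 libraries alone, 4 of 8 members were called, against 30.6% of all genes: Dicer1 (change -1.33, SE 0.24, adjusted p = 0.020, limma), Ago3 (change -1.14, SE 0.28, adjusted p = 0.037) and Piwil2 (change -1.09, SE 0.27, adjusted p = 0.039) fell and Ago2 (change 0.93, SE 0.22, adjusted p = 0.036) rose. With the spread weighted by stage the same 4 were called, against 38.9%. Of all genes, 883 rose and 2326 fell in the fit on the 4 libraries, and the median change was -0.34. After quantile normalization in the fit over 12 libraries, the change was -1.03 for Dicer1, -0.74 for Ago3, -0.67 for Piwil2 and 1.16 for Ago2. None of these was called there (adjusted p between 0.34 and 0.67, limma).

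Several members end where the genome itself holds A, and the Smart-seq2 protocol used here starts its cDNA from an oligo-dT primer. The last 10 bases of a model are in lower case and the next 20 genomic bases in capitals, 5′ to 3′ on the strand of the gene (GRCm38). They are shown to set ends with and without such runs side by side.
Ago2 upstream last-exon model (chr15:73098432-73098461): agagtatgcaAAAAAAAAAAAAAAAAAAAA
Piwil1 (chr5:128755160-128755189): taacaaacagAAAAAAAGAAAAAGAAAGAA
Ago3 last-exon model (chr4:126340259-126340288): aaaacaaatgACAAAATAAATAAAATAAAT
Dicer1 intron 6 models (chr12:104722053-104722082): aagaaattgaAGAAAAAGAAAAGCCAGAGA
Drosha (chr15:12935218-12935247): gtgcccattgAAATAAAACTCAAACCACAC
Dicer1 3′ model (chr12:104691419-104691448): atatgtgtatAAACTCTTTGGAACTAATTT
Ago2 8-exon model (chr15:73106028-73106057): ttgcagtattAATGTGGTAGGTAGATGCTG
Mael (chr1:166201358-166201387): agatcttggcACTCTTGCTTGTTGTGTATT
The count of A in these 20 bases was 20 for the upstream last-exon model of Ago2, 17 for Piwil1, 15 for the last-exon model of Ago3, 13 for the intron 6 models of Dicer1 and 12 for Drosha. It was 7 for the 3′ model of Dicer1, 5 for the 8-exon model of Ago2 and 2 for Mael. The 20 bases after the other ends were not all annotated exon sequence and were not examined. Those ends belong to the Ago2 5′ models and its model at the annotated end, the Ago3 models ending in introns, and all Tarbp2 and Piwil2 models. Among the printed ends, those of the 3′ model of Dicer1 and of Mael had AATAAA or ATTAAA in their last 40 bases. The other printed ends, with and without A runs, did not. The printed genomic bases after the ends of Drosha and of the last-exon model of Ago3 hold AATAAA, and Drosha ends 63 bases from an annotated end. The part of priming at such runs in the levels was not tested.

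The other genes of these pathways were taken from 3 lists. Of 12 tested microRNA maturation partners (15 listed), 2 rose and none fell from 1-cell to 2-cell, where 26.1% of all genes rose and 6.06% fell. Over the span from oocyte to blastocyst, where 35.7% of all genes rose and 17.7% fell, 5 rose and 1 fell, with a median change of 1.54 against 0.83 for all genes. The cap-binding protein gene Ncbp1 rose in both comparisons, from 0.326 and 0.812 TPM in 1-cell to 441 and 43.3 in 2-cell embryos (change 6.497, SE 0.89, adjusted p = 0.00024, limma), as did Srrt, which links the cap to Drosha, from 3.39 and 0.799 to 11.6 and 31.9 TPM (change 2.85, SE 0.77). The editing enzyme gene Adar fell from oocyte to blastocyst, from 6.17 and 12.1 to 1.37 and 0.578 TPM (change -2.32, SE 0.63). Between sperm and oocytes, where 53.9% of all genes were called, 1 was higher and 2 lower in oocytes. Lin28a, which blocks the maturation of let-7, was higher in oocytes (34.3 and 33.6 against 0.034 and 0.529 TPM), and Ncbp1 and Srrt were lower.

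Of 17 tested Argonaute partners and silencing effectors (21 listed), 2 rose and 1 fell from 1-cell to 2-cell (3 of 17, against 32.2% of all genes), and 4 rose and 4 fell from oocyte to blastocyst (8 of 17, against 53.4%), with a median change of -0.13 against 0.83 for all genes. Cnot1, the scaffold of the deadenylase complex, rose from 2.08 and 1.90 to 11.7 and 46.4 TPM between 1-cell and 2-cell (change 3.03, SE 0.85), and Fmr1, an RNA-binding translation regulator, from 5.32 and 23.9 to 158 and 59.5 TPM (change 2.97, SE 0.79). The largest falls of the list from oocyte to blastocyst were those of Dcp1a and Edc4, whose products act in decapping. Dcp1a fell from 581 and 2041 TPM in oocytes to 15.9 and 5.95 in blastocysts (change -6.65, SE 1.07), and Edc4 from 373 and 482 to 13.3 and 16.3 TPM (change -4.76, SE 0.93). Dcp1a had already fallen from 1-cell to 2-cell (592 and 137 to 7.10 and 89.6 TPM, change -3.40, SE 1.07). Mov10, an Argonaute-bound helicase gene, was listed at 0 in both oocyte libraries and had 13.97 and 6.22 TPM in blastocysts. From sperm to oocyte 4 were higher and 2 lower in oocytes, against 17.1% and 36.9% of all genes. Dcp1a and Edc4 led those higher. Tnrc6a (321 and 538 against 133 and 60.9 TPM) and Ddx6 (5.45 and 1.38 against 0.264 and 0 TPM) were lower.

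Of 20 tested piRNA pathway partners (26 listed), 7 rose and 4 fell from 1-cell to 2-cell (11 of 20, against 32.2% of all genes), and 4 rose and 3 fell from oocyte to blastocyst (7 of 20, against 53.4%), with a median change of -1.02 against 0.83 for all genes. Wdr77, a cofactor of the arginine methyltransferase that acts on Piwi proteins, rose from 0.182 and 0.263 to 25.8 and 98.8 TPM between 1-cell and 2-cell (change 5.40, SE 0.72), and Btbd18, a nuclear factor of piRNA precursor transcription, from 0.079 and 0.075 to 53.0 and 28.2 TPM (change 5.20, SE 0.61). Tdrd12 fell from 198 and 62.5 to 4.29 and 7.93 TPM (change -4.03, SE 0.76), and Asz1, a protein of germ granules at mitochondria, from 84.6 and 36.2 to 1.71 and 9.95 TPM (change -3.37, SE 0.77). Over the whole span from oocyte to blastocyst, Wdr77 and Fkbp6 (change 3.61, SE 0.72) led the rises and Kif17 (change -4.97, SE 0.99) and Tdrd12 (change -3.52, SE 0.76) the falls. Between sperm and oocytes, Asz1 and Tdrd12 were higher in oocytes and 3 genes were lower, against 17.1% and 36.9% of all genes. The lower genes were led by Wdr77 (change -3.61, SE 0.74) and Pnldc1, the trimming exonuclease (change -2.66, SE 0.78). No gene of the 3 lists was called by limma in the other 4 comparisons. These were oocyte to 1-cell (0.267% of all genes called), 2-cell to 4-cell (3.1%), 4-cell to 8-cell (1.62%) and 8-cell to blastocyst (2.98%).

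Over all 14 libraries, the gene whose log2(TPM + 1) was most alike to that of a member was Pdcd7 for Dicer1 (Pearson r = 0.96), Cdc25c for Drosha (0.97), Ddx41 for Tarbp2 (0.98), 2410003L11Rik for Ago2 (0.95), Gle1 for Ago3 (0.94), Gm13855 for Piwil1 (0.94), Simc1 for Piwil2 (0.97) and Wdr48 for Mael (0.95). Each was the highest of 11266 genes, and the 14 points share 7 stages. Pdcd7, for example, had stage means of 0.705 TPM in sperm, 89.2 in oocytes and 9.96 in blastocysts, and Simc1 had 0.034 in oocytes, 25.5 in 4-cell embryos and 3.78 in blastocysts.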

How the data were processed

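Long reads were aligned to mm10 with GMAP, collapsed within a stage by cDNA_Cupcake and joined across stages by Cuffmerge, and the authors deposited the exon coordinates. The deposited TPM of each short-read library comes from salmon, for the merged transcripts and separately for those of its own stage. TPM keeps no depth, so no count test was run, the depth behind a value is unknown and precision rests on 2 libraries a stage.

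Samples were grouped by the stage in their titles. Merged transcripts were assigned to GENCODE vM21 genes by same-strand exon overlap, which placed 18333 of 22612, and TPM was summed by gene. Exons are numbered by the longest coding transcript. log2(TPM + 1) was tested with limma (lmFit, contrasts.fit, eBayes with a trend), with stage as the only term, on 12 libraries from oocyte to blastocyst, and on 14 for sperm against oocyte. A feature was tested if 2 or more libraries reached a TPM of 1, and p-values were adjusted by Benjamini-Hochberg over all features tested. First-exon clusters, transcripts of a gene whose first exons overlap, were tested as the log2 ratio of their TPM + 1 to that of the rest of the gene. Nothing states whether the batches were independent animals, so p-values measure the spread between these libraries.

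The members and lists were chosen with earlier results of these data known. Named are all members, their transcripts, the 2 largest called rises and falls of each list in each comparison, and the gene most alike to each member. Alternatives were a pseudocount of 0.1, no filter, a filter of 5 TPM, quantile normalization, a spread weighted by stage, a fit on 4 libraries, a replicate block, transcripts of more than 1 gene left out, starts within 300 bases as 1 cluster, TPM over own-stage transcripts and each library left out. The locus nearest the annotated end alone was chosen after seeing the data. Fits were tested on simulated data. Python 3.11.15, R 4.3.3 and limma 3.58.1 were used. Sequences came from GENCODE vM21 transcripts and from RefSeq promoters (GRCm38.p6), which held 8 of 10 members.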

Additional observations from a re-analysis of the deposited data

How the results depend on the processing

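For the summed TPM of the members, the calls from oocyte to blastocyst of Tarbp2 and Piwil1 and the call of Piwil2 from 1-cell to 2-cell were kept in all 21 other settings. Dicer1 from oocyte to blastocyst turned from -3.27 to 0.13 when only the locus nearest the annotated end was used, which leaves out the intron 6 models. The cluster of its proximal start turned from 0.09 to -2.92 with a pseudocount of 0.1.

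Members called changed as follows. From 1-cell to 2-cell there were 1 in place of 2 with quantile normalization, with the spread weighted by stage and with a fit on the 4 libraries. From 2-cell to 4-cell there were 0 in place of 1 with a pseudocount of 0.1, with the weighted spread and with the fit on the 4 libraries, and 2 with the locus nearest the annotated end. From 4-cell to 8-cell there were 4 in place of 0 with the weighted spread and with the 4 libraries. From oocyte to blastocyst there were 6 in place of 5 with a pseudocount of 0.1 and with no filter, and 4 with the locus nearest the annotated end. From sperm to oocyte there were 3 in place of 5 with the locus nearest the annotated end and 4 with quantile normalization.

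Member transcripts called from 1-cell to 2-cell were 2 in place of 7 with the weighted spread and 0 with the 4 libraries (5 at an unadjusted p under 0.05 in limma). From 2-cell to 4-cell they were 1, 2 and 3 in place of 0 with no filter, the filter of 5 TPM and quantile normalization. From 4-cell to 8-cell they were 1 with a pseudocount of 0.1 and with quantile normalization, 6 with the weighted spread and 5 with the 4 libraries, in place of 0. From 8-cell to blastocyst there was 1 with the weighted spread in place of 0. From oocyte to blastocyst there were 15 with a pseudocount of 0.1 and 14 with quantile normalization in place of 10, and 8 to 11 in the other settings with all libraries. Of all 20250 transcripts, quantile normalization called 4719 higher and 4777 lower there. Called first-exon clusters of members from 1-cell to 2-cell were 0 in place of 2 with quantile normalization, the weighted spread and the 4 libraries. From 4-cell to 8-cell there was 1 with the weighted spread in place of 0, and from oocyte to blastocyst there were 2 with the 4 libraries in place of 4. For the other settings and comparisons the share of all features called is not given. Those counts show only how the calls moved with the setting.

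Among all genes, 28 were called from oocyte to 1-cell. The count was 10 with a pseudocount of 0.1, 0 with no filter, 17 with quantile normalization, 80 with the weighted spread and 0 with the 4 libraries, where limma gave 981 and 975 genes at an unadjusted p under 0.05 in the settings with a count of 0. From 1-cell to 2-cell it was 1594 with the weighted spread and 1030 with the 4 libraries in place of 3371. From 2-cell to 4-cell it was 88 with a pseudocount of 0.1, 1064 with quantile normalization, 1 with the weighted spread and 0 with the 4 libraries (1762 at an unadjusted p under 0.05) in place of 325. From 4-cell to 8-cell it was 266 with quantile normalization, 4075 with the weighted spread and 3209 with the 4 libraries in place of 170. From 8-cell to blastocyst it was 554 with the weighted spread and 0 with the 4 libraries (1731 at an unadjusted p under 0.05) in place of 312. From oocyte to blastocyst it was 6008 with a pseudocount of 0.1, 5490 with no filter and 5524 with the locus nearest the annotated end in place of 5599. From sperm to oocyte it was 5986 with the locus nearest the annotated end and 6027 with quantile normalization in place of 6074. The cause was not tested.

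With the replicate number as a block, no member was called from 2-cell to 4-cell in place of 1, 4 member transcripts in place of 7 and 1 first-exon cluster in place of 2 from 1-cell to 2-cell, and 1 gene in place of 28 from oocyte to 1-cell, 86 in place of 325 from 2-cell to 4-cell and 91 in place of 170 from 4-cell to 8-cell. The numbers were not taken to pair the samples: over 15 pairs of stages, the correlation of same-numbered deviations ran from -0.55 to 0.49 and was over 0.1 in 5. The titles and the deposited files number the 8-cell libraries in opposite ways. The titles were followed, the other numbering turns the sign of the 5 correlations with that stage, and a block with it was not run.

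Leaving out each library in turn gave 1 to 3 members called from 1-cell to 2-cell, 0 to 1 from 2-cell to 4-cell, 3 to 7 from oocyte to blastocyst and 4 to 5 from sperm to oocyte, and 0 in the other steps. Member transcripts called were 2 to 8 from 1-cell to 2-cell, 0 to 5 from 2-cell to 4-cell, 0 to 1 in oocyte to 1-cell, 4-cell to 8-cell and 8-cell to blastocyst, and 7 to 15 from oocyte to blastocyst. First-exon clusters were 0 to 2, 0 to 1 and 2 to 5 from 1-cell to 2-cell, 2-cell to 4-cell and oocyte to blastocyst. Genes called were 0 to 219, 1751 to 4001, 0 to 1774, 0 to 893 and 25 to 821 in the 5 steps in order of stage, 4515 to 6478 from oocyte to blastocyst and 4845 to 6683 from sperm to oocyte. With TPM over the transcripts of the own stage, 14 of 23 stage means of members moved by less than 1 SD between replicates and 9 by more.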
